A study of Caenorhabditis elegans with 8 samples.

Results

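The genes described here are the chaperones and co-chaperones of Caenorhabditis elegans whose names begin with hsp-, dnj-, cct- or pfd-, without the small heat shock proteins whose names begin with hsp-12, hsp-16 or hsp-17. By this rule 54 of the 14541 genes in the deposited expression table were members: 11 hsp, 29 dnj, 8 cct and 6 pfd genes, while 11 small heat shock protein names were left out. The rule reads names only, so hsp-25 and hsp-43, which encode small proteins of the alpha-crystallin type, stayed in. All 54 members are protein-coding genes with exon annotation, and all passed the low-expression filter that the authors applied to the table.

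Chaperones bind unfolded proteins and help them reach or keep their folded shape. HSP70 proteins hold short stretches of a client in cycles driven by ATP, J-domain proteins (the dnj genes) deliver clients and stimulate the HSP70 ATPase, and HSP90 acts on clients at a later step. The TRiC/CCT chaperonin, built from the cct subunits, folds actin and tubulin that prefoldin (the pfd subunits) can hand over, and separate HSP70 and J-domain proteins serve the cytosol, the endoplasmic reticulum (ER) and the mitochondria.

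RNA-seq was done on whole animals of 2 C. elegans strains, with 4 replicate libraries each. pals-17(*) mutants (strain ERT994) carry the allele syb3980, a set of point mutations that creates a premature stop codon in pals-17, a negative regulator of the intracellular pathogen response, and were grown for 72 h at 20 °C from the L1 stage. Wild-type N2 animals, with no mutation, were grown for 48 h at 20 °C from L1, and both strains fed on E. coli OP50-1, which the labels write as OP-50. The mutants develop slowly and out of step with each other, so that their libraries hold animals of mixed stages around L4. Genotype, growth time and developmental stage therefore cannot be told apart in any difference given here, and in these bulk samples fewer cells of a type and less RNA per cell cannot be told apart either. Each library pooled many animals from plates of 1 strain. The labels call the replicates experimental replicates and do not say whether they came from separate cultures, so p-values measure the spread between these libraries.

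Recovered reads on listed genes numbered 18629170 to 21891721 in the mutant libraries and 17871320 to 23378799 in the wild-type libraries. pals-17 itself was at 4.37 ± 0.224 CPM in mutants and 16.03 ± 2.22 CPM in wild-type animals (SD, n = 4 each). Summed levels of marker genes differed between the strains: oocyte and early embryo markers (13 of 13 higher) came to 3670 to 4842 CPM in mutants and 39.7 to 210.9 CPM in wild-type animals, intestine markers (9 of 9 lower) to 5515 to 6715 CPM in mutants and 19130 to 21960 CPM in wild-type animals, and molting epidermis markers (9 of 9 lower) to 1025 to 1286 CPM in mutants and 6394 to 7771 CPM in wild-type animals. Germline and sperm markers were also higher (10 of 10 each), and no marker in these lists was at 0 in all libraries of a strain. With the deposited scaling described below, 6 of 8 body wall muscle markers and 7 of 9 neuron markers were lower. Of all genes, 42.5% were higher and 41.2% lower. With library totals as the scaling, 3390 of all 14541 genes were lower and 8742 higher. Of the muscle markers 0 were then lower and 1 higher, and of the neuron markers 3 were lower and 4 higher. The part of these tissue differences in the results below was not tested.

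A level is given in CPM, reads divided by the library size as the authors scaled it and brought to a common size, and a difference as the log2 fold change of pals-17(*) over wild type. The deposited scaling set each mutant library size at 1.20 to 1.26 times, and each wild-type library size at 0.793 to 0.822 times, its own reads, so it bears on every direction below. It was therefore set beside 3 others: library totals, median centring and quantile normalization, which moved the median log2 fold change of all genes by 0.60, -0.28 and -0.12. Differences were tested with limma across all 14541 genes (2-sided, Benjamini-Hochberg adjustment), and a gene passed at an adjusted p under 0.05.

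On the deposited scale, 12 members passed as higher and 31 as lower in pals-17(*) mutants, and 11 did not pass. Of all genes, 42.5% passed as higher and 41.2% as lower, so the share of members that passed in either direction, 79.6%, was near the 83.7% of all genes. Their changes were smaller: 22.2% of members passed with an absolute log2 fold change above 1, against 49.3% of all genes, and 42 of the 54 members lay between -1 and 1, as did 50.6% of all genes. The mutant libraries lay wholly above the wild-type libraries for 11 members (41.2% of all genes) and wholly below them for 29 (39% of all genes), and overlapped with them for 14, so that they were apart for 40 members, beside 80.2% of all genes.

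The direction of most members depended on the scaling. With library totals 37 members passed as higher and 9 as lower, with median centring 6 and 38, and with quantile normalization 25 and 16. The higher share of the members that passed was thus 27.9% on the deposited scale and 80.4%, 13.64% and 61.0% on these 3. Of all genes that passed, 50.76% were higher on the deposited scale and 72.06%, 41.95% and 46.24% on these 3, so the whole table shifted as well. The median log2 fold change of the members was -0.28 on the deposited scale (all genes 0.0041), 0.31 with library totals (all genes 0.60), -0.56 with median centring (all genes -0.27) and 0.09 with quantile normalization (all genes -0.12). For 32 members (59.3%, against 31.7% of all genes) the sign was not the same under the 4 scalings, and these included all 8 cct and all 6 pfd genes. The members together took 1.56 ± 0.060% of the reads in mutants and 1.30 ± 0.087% in wild-type animals, while their summed level was 12690 ± 613 CPM in mutants and 16010 ± 1018 CPM in wild-type animals (SD, n = 4 each), which are opposite directions.

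**Figure D1:**
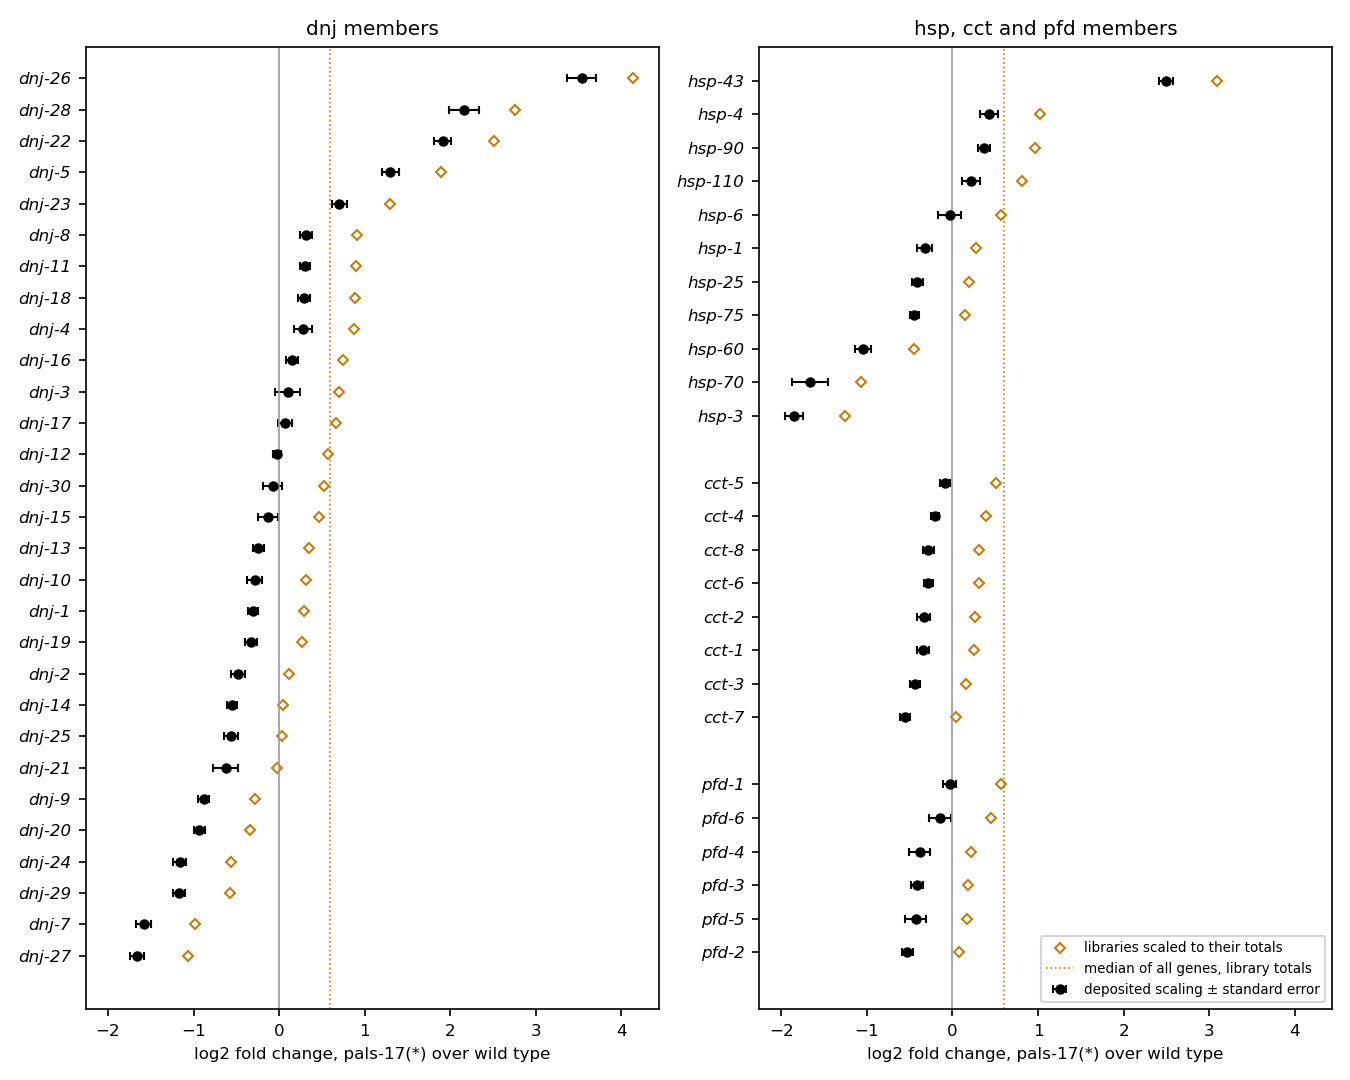
Log2 fold change (pals-17(*) over wild type, x axis) of each of the 54 members (y axis), on the deposited scale (black, ± standard error) and with library totals (open diamonds), with the median of all genes under library totals as a dotted line. On the deposited scale dnj-26 at 3.53 and hsp-3 at -1.85 mark the ends, and most other members lie left of 0 on the deposited scale and right of it with library totals.

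Under all 4 scalings 6 members passed as higher (dnj-5, dnj-22, dnj-23, dnj-26, dnj-28 and hsp-43) and 8 as lower (hsp-3, hsp-60, hsp-70, dnj-7, dnj-9, dnj-24, dnj-27 and dnj-29), which is 11.1% and 14.8% of the members, against 31.6% and 22.6% of all genes. A further 8 members kept their sign but did not pass under every scaling: dnj-4, dnj-8, dnj-11, dnj-18, hsp-4 and hsp-90 had positive values, and dnj-20 and dnj-21 negative ones.

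Members of the ER made up 4 of the 7 members that fell by more than 1 on the log2 scale. HSP-3 and HSP-4 are the pair of BiP proteins, the HSP70s of the ER lumen, and DNJ-7, DNJ-20, DNJ-27 and DNJ-29 are J-domain proteins of the ER or its membrane, related to mammalian P58IPK, ERdj3, ERdj5 and Sec63. These 6 genes were grouped after their values had been seen. Of them 5 passed as lower (41.2% of all genes) and hsp-4 as higher (42.5% of all genes), and their median was -1.38. The summed share of the reads of these 6 genes was 0.200 ± 0.018% in mutants and 0.334 ± 0.031% in wild-type animals (SD, n = 4 each). Many dnj genes were placed in no compartment, so the grouping may leave out other ER members. Among those not placed, dnj-5 (1.30) and dnj-8 (0.32) passed as higher and dnj-24 (-1.16) as lower.

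hsp-3 (chromosome X, 6089028 to 6092124, WBcel235) had the lowest fold change of the members on the deposited scale with all 8 libraries, though hsp-70, dnj-27, dnj-7 and dnj-24 lay below it with quantile normalization. It was at 883, 752, 685 and 728 CPM in mutants, against 2835, 3132, 2664 and 2385 CPM in wild-type animals. Every mutant library lay below every wild-type library, with a log2 fold change of -1.85 ± 0.10 (standard error, limma adjusted p = 9.4e-08), and -0.96 with quantile normalization, the smallest drop under the 4 scalings. Its paralogue hsp-4 (chromosome II, 7350112 to 7352645), whose transcription is induced by the unfolded protein response, was at 396, 351, 310 and 334 CPM in mutants, against 281, 283, 256 and 215 CPM in wild-type animals. Here every mutant library lay above every wild-type library, with a log2 fold change of 0.43 ± 0.10 (limma adjusted p = 0.0030), which was 0.15 with median centring (limma adjusted p = 0.21).

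The ratio of hsp-3 to hsp-4 reads within a library does not depend on the scaling between libraries. It was 2.19 ± 0.039 in mutants and 10.7 ± 0.50 in wild-type animals (SD, n = 4 each), with the mutant libraries at 2.14 to 2.23 and the wild-type libraries at 10.1 to 11.1. Ratios of this kind were formed after the values had been seen and are given with no test.

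Among the J-domain genes of the ER, dnj-7 (chromosome X, 7194564 to 7198291) was at 50.5, 50.7, 40.3 and 43.03 CPM in mutants, against 141.1, 148.6, 131.4 and 130.8 CPM in wild-type animals (log2 fold change -1.58 ± 0.088, limma adjusted p = 9.0e-08). dnj-27 (chromosome I, 11877803 to 11887278) was at 13.4, 12.6, 13.8 and 12.81 CPM in mutants, against 45.2, 44.9, 37.3 and 39.9 CPM in wild-type animals (log2 fold change -1.66 ± 0.083, limma adjusted p = 4.3e-08). The strains were apart for each of these genes, and the level in mutants was 0.333 times that in wild-type animals for dnj-7 and 0.316 times for dnj-27. dnj-29 (chromosome I, 14104515 to 14113108) was at 137.0, 127.8, 113.9 and 112.7 CPM in mutants, against 279.8, 283.3, 274.7 and 262.4 CPM in wild-type animals (log2 fold change -1.17 ± 0.073, limma adjusted p = 1.9e-07). dnj-20 (chromosome II, 9617469 to 9624176), the dnj gene with the highest mean CPM, was at 359.9, 350.7, 307.5 and 321.4 CPM in mutants, against 635.2, 635.7, 659.7 and 621.8 CPM in wild-type animals. The strains were again apart for both, but the log2 fold change of dnj-20, -0.93 ± 0.064 (limma adjusted p = 3.7e-07), was -0.03 with quantile normalization (limma adjusted p = 0.62).

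Other genes of ER folding and of the unfolded protein response were taken from a list of 15. On the deposited scale 14 passed as lower (41.2% of all genes) and none as higher, with a median log2 fold change of -0.75 beside 0.0041 for all genes. The sensor gene ire-1, at 0.07, did not pass (-0.21 with median centring, limma adjusted p = 0.0084). The 6 genes of this list beyond -1 were lower under all 4 scalings: pdi-2 (-2.36), pdi-3 (-1.99) and pdi-6 (-1.81), which encode protein disulfide isomerases, uggt-1 (-1.79), whose product re-glucosylates misfolded glycoproteins, crt-1 (-1.69), which encodes calreticulin, and enpl-1 (-1.51), which encodes the ER form of HSP90. The levels of crt-1, 1261 ± 24.4 CPM in mutants and 4077 ± 347 CPM in wild-type animals, and of pdi-2, 786.6 ± 98.4 CPM in mutants and 4049 ± 590 CPM in wild-type animals, were the highest of the list (SD, n = 4 each). With library totals the list's median was -0.16 (all genes 0.60), and the sign of 8 of its genes was not the same under the 4 scalings. Intestine and molting epidermis markers were lower in the same libraries, and their part in the ER result was not tested.

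**Figure D2:**
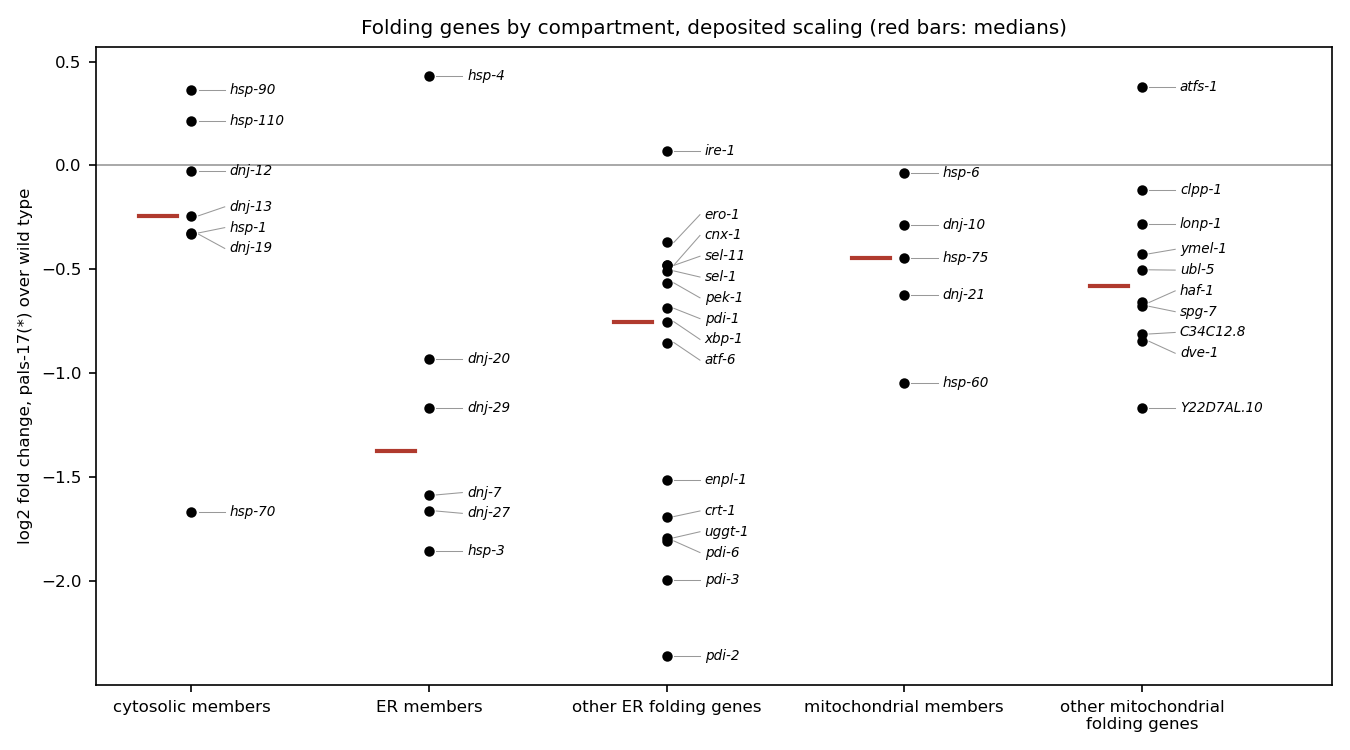
Log2 fold change on the deposited scale (y axis) of the members placed in the cytosol, the ER and the mitochondrion and of other ER and mitochondrial folding genes (x axis), each point a gene and each red bar a group median. The ER members other than hsp-4 (0.43) lie between -0.93 and -1.85, and the 7 members placed in the cytosol, other than hsp-70 (-1.67), between -0.33 and 0.36. Members were placed after their values had been seen. The cct and pfd genes and many dnj genes, such as dnj-26 (3.53), dnj-22 (1.91) and dnj-24 (-1.16), were placed in no group.

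Of the cytosolic members, hsp-1, the constitutive HSP70, had the highest CPM of all members in wild-type animals. It was at 2849, 2373, 2339 and 2627 CPM in mutants, against 3241, 3409, 3252 and 2843 CPM in wild-type animals. The highest mutant library lay above the lowest wild-type library, and the log2 fold change of -0.32 ± 0.090 (limma adjusted p = 0.0067) became 0.27 with library totals and 0.43 with quantile normalization. hsp-90, the cytosolic HSP90, was at 2624, 2558, 2591 and 2556 CPM in mutants, against 2089, 2149, 1975 and 1827 CPM in wild-type animals. The strains were apart, with a log2 fold change of 0.36 ± 0.069 (limma adjusted p = 0.00065) that was positive under all 4 scalings and lowest with median centring (0.09, limma adjusted p = 0.30). The ratio of hsp-1 to hsp-90 reads was 0.986 ± 0.086 in mutants and 1.585 ± 0.044 in wild-type animals (SD, n = 4 each), with the mutant libraries at 0.903 to 1.09 and the wild-type libraries at 1.55 to 1.65. hsp-110, which encodes an exchange factor for HSP70, was at 390.3 ± 43.6 CPM in mutants and 337.2 ± 43.2 CPM in wild-type animals and did not pass (log2 fold change 0.21, limma adjusted p = 0.088).

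hsp-70, a heat-inducible HSP70 of the cytosol, was among the members with the lowest level per length. It was at 1.16, 1.56, 1.23 and 1.72 CPM in mutants, against 6.14, 3.395, 4.39 and 4.36 CPM in wild-type animals, which rests on 147 reads in all mutant libraries and 295 in all wild-type libraries. The strains were apart, and the log2 fold change was -1.67 ± 0.21 (limma adjusted p = 3.7e-05), lower under all 4 scalings.

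hsp-43 (chromosome X, 6233151 to 6235543) rose most among the hsp genes. It was at 116.6, 122.2, 107.4 and 115.4 CPM in mutants, against 23.2, 19.7, 20.4 and 18.6 CPM in wild-type animals, a fold change of 5.64 (log2 2.50 ± 0.079, limma adjusted p = 3.1e-09). hsp-25, the other member of the alpha-crystallin type, was at 116.0 ± 9.09 CPM in mutants and 153.7 ± 4.92 CPM in wild-type animals, with a log2 fold change of -0.41 that became 0.19 with library totals. The ratio of hsp-43 to hsp-25 reads was 0.999 ± 0.10 in mutants and 0.133 ± 0.015 in wild-type animals (SD, n = 4 each).

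**Figure D3:**
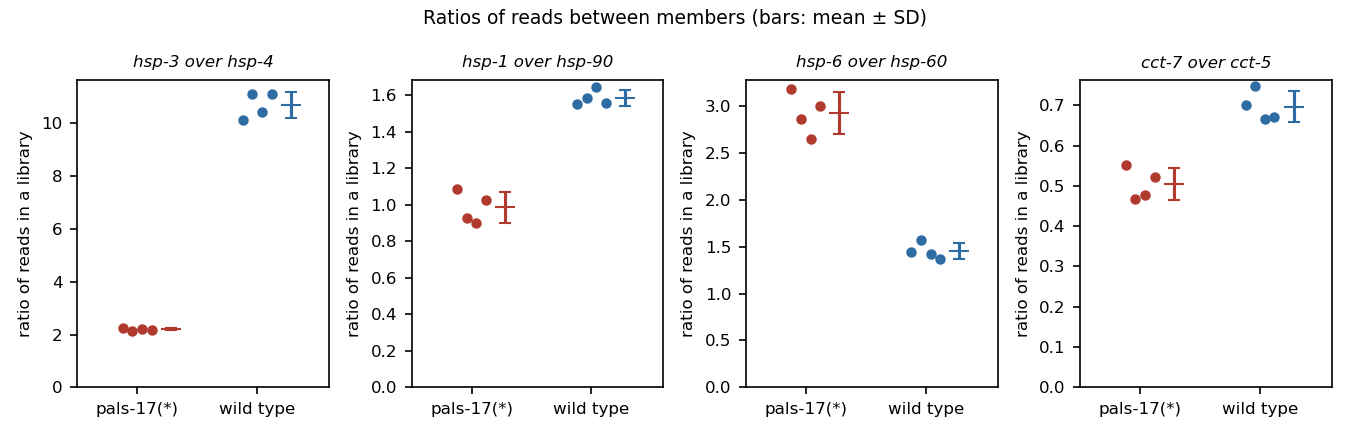
Ratio of the reads of 2 members within a library (y axis, linear from 0), with each library as a point and the mean ± SD beside it, pals-17(*) left and wild type right. In each of the 4 panels the strains are apart, as for hsp-3 over hsp-4 (2.19 in mutants and 10.7 in wild-type animals).

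The main mitochondrial chaperones, hsp-60 and hsp-6, had unlike differences. hsp-60 (chromosome III, 1619742 to 1625803), the mitochondrial chaperonin, was at 281.8, 270.8, 231.1 and 235.2 CPM in mutants, against 560.7, 569.9, 507.5 and 463.4 CPM in wild-type animals. The strains were apart, with a log2 fold change of -1.04 ± 0.091 (limma adjusted p = 2.2e-06), which was -0.21 with quantile normalization and still passed. hsp-6, the mitochondrial HSP70, overlapped between the strains at 747.8 ± 119.8 CPM in mutants and 764.6 ± 112.6 CPM in wild-type animals and did not pass (log2 fold change -0.03, limma adjusted p = 0.82), but was at 0.56 with library totals and 0.86 with quantile normalization. The ratio of hsp-6 to hsp-60 reads was 2.92 ± 0.23 in mutants and 1.45 ± 0.086 in wild-type animals (SD, n = 4 each).

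Of the other mitochondrial members, hsp-75, the mitochondrial HSP90, was at 97.6 ± 2.82 CPM in mutants and 132.9 ± 3.77 CPM in wild-type animals (log2 fold change -0.45, 0.15 with library totals). dnj-10, related to mammalian Tid1, had a log2 fold change of -0.29, and dnj-21, related to the import motor subunit TIM14, of -0.62. From a list of 10 other genes of mitochondrial folding and its stress response, 8 passed as lower and 1, the transcription factor gene atfs-1 (0.38), as higher. Of all genes, 41.2% passed as lower and 42.5% as higher. With library totals 2 of the list passed as lower and 3 as higher, beside 3390 lower and 8742 higher of all 14541 genes. The median of the list, -0.58, became 0.02 (all genes 0.60). Y22D7AL.10, which encodes the HSP10 partner of HSP-60, was at 117.3 ± 7.23 CPM in mutants and 263.7 ± 16.9 CPM in wild-type animals and fell by 1.17 on the log2 scale, and it was lower under all 4 scalings. spg-7, a gene of a mitochondrial protease, had a log2 fold change of -0.68 that did not pass with library totals (-0.08) or quantile normalization (-0.22).

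On the deposited scale the dnj genes ranged from -1.66 (dnj-27) to 3.53 (dnj-26), with a median of -0.13. Of the 29 dnj genes, 9 passed as higher, 14 as lower and 6 did not pass, beside 42.5% higher and 41.2% lower among all genes. With library totals 19 passed as higher and 6 as lower, beside 8742 higher and 3390 lower of all 14541 genes. dnj-26 (chromosome IV, 12251093 to 12252679) had the highest log2 fold change of the members on the deposited scale. It was at 10.9, 13.3, 13.4 and 14.5 CPM in mutants, against 1.07, 0.836, 1.29 and 1.23 CPM in wild-type animals, from 1351 reads in all mutant libraries and 71 in all wild-type libraries. The strains were far apart, at a fold change of 11.6 (log2 3.53 ± 0.17, limma adjusted p = 3.2e-08), and 2.81 on the log2 scale with quantile normalization, its lowest value. Even so, dnj-26 stayed among the members with the lowest level per length, at rank 52 of the 54 in mutants and 54 in wild-type animals.

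dnj-28 (chromosome I, 2996488 to 3001382) was at 17.6, 16.3, 14.8 and 19.2 CPM in mutants, against 4.64, 4.54, 3.295 and 2.86 CPM in wild-type animals (log2 fold change 2.16 ± 0.17, limma adjusted p = 1.0e-06). dnj-22 (chromosome V, 8461113 to 8462120) was at 39.1, 45.03, 48.9 and 49.4 CPM in mutants, against 13.4, 11.3, 12.6 and 10.97 CPM in wild-type animals (log2 fold change 1.91 ± 0.10, limma adjusted p = 5.8e-08). Both genes had strains apart and were higher under all 4 scalings. dnj-5 (chromosome II, 6853461 to 6858301) was at 204.8, 186.9, 183.2 and 189.9 CPM in mutants, against 86.2, 88.0, 74.3 and 64.5 CPM in wild-type animals (log2 fold change 1.30 ± 0.098, limma adjusted p = 7.5e-07). Per kb of exon, dnj-5 stood at rank 6 of the 29 dnj genes in mutants and 20 in wild-type animals, and dnj-22 at rank 7 in mutants and 26 in wild-type animals.

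Apart from the genes placed in the ER, dnj-24 (chromosome III, 5415583 to 5424083) was the dnj gene that fell by more than 1 on the log2 scale. It was at 17.9, 15.9, 15.2 and 15.7 CPM in mutants, against 34.2, 34.8, 37.2 and 37.9 CPM in wild-type animals, with strains apart and a log2 fold change of -1.16 ± 0.076 (limma adjusted p = 2.8e-07). Of its annotated exon length 3.31% overlaps another gene on the same strand, so a small part of these reads may be shared. The other annotated overlaps of members were at most 6.26% of exon length, for cct-1.

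**Figure D4:**
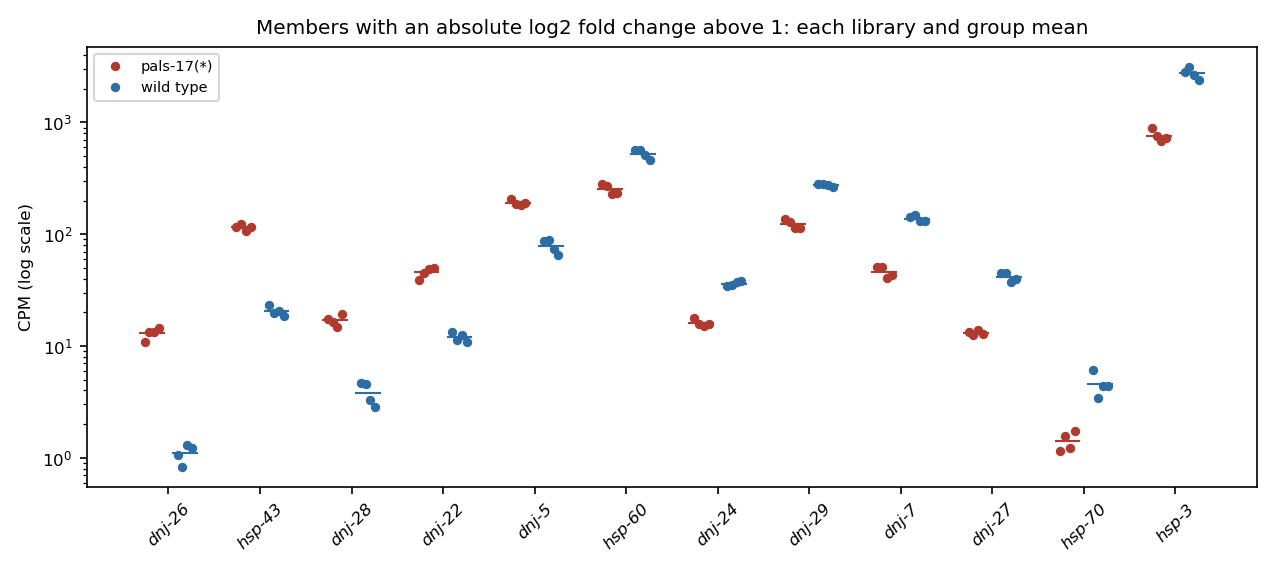
Level in CPM (y axis, log scale) of the 12 members that passed with an absolute log2 fold change above 1, each point a library and each bar a group mean, with pals-17(*) in red and wild type in blue. Points of the strains do not overlap for any of the 12, from dnj-26 (fold change 11.6) on the left to hsp-3 (0.277) on the right.

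The most abundant cytosolic J-domain genes had small differences on the deposited scale. dnj-12 was at 259.9 ± 5.95 CPM in mutants and 264.7 ± 7.17 CPM in wild-type animals and did not pass (log2 fold change -0.03), although it was at 0.57 with library totals and 0.75 with quantile normalization. dnj-19, next to dnj-12 in mean level, was at 232.1 ± 15.6 CPM in mutants and 291.7 ± 16.5 CPM in wild-type animals (log2 fold change -0.33, 0.27 with library totals). With dnj-12 as the base, reads of dnj-20 came to a ratio of 1.29 ± 0.11 in mutants and 2.41 ± 0.049 in wild-type animals, and those of dnj-26 to 0.0502 ± 0.0060 in mutants and 0.00418 ± 0.00082 in wild-type animals (SD, n = 4 each). The remaining dnj genes that did not pass were dnj-3 (log2 fold change 0.10), dnj-15 (-0.13), dnj-16 (0.15), dnj-17 (0.07) and dnj-30 (-0.08), and for each of them the sign was not the same under the 4 scalings. The other dnj genes that passed had log2 fold changes of 0.28 to 0.70 (dnj-4, dnj-8, dnj-11, dnj-18 and dnj-23) or of -0.24 to -0.88 (dnj-1, dnj-2, dnj-9, dnj-10, dnj-13, dnj-14, dnj-21 and dnj-25). Of these 13 genes dnj-23 and dnj-9 passed in the same direction under all 4 scalings. The call of dnj-4 depended on single libraries: its strains overlapped, and it did not pass (limma adjusted p of 0.085 to 0.096) without mutant replicate 3 or 4 or wild-type replicate 1 or 2.

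The 8 subunit genes of the TRiC/CCT chaperonin kept close together on every scale. On the deposited scale 7 passed as lower (41.2% of all genes) and cct-5 did not pass. The log2 fold changes were -0.55 (cct-7) to -0.09 (cct-5), with a median of -0.31 (all genes 0.0041). But the median was 0.29 with library totals (all genes 0.60) and 0.49 with quantile normalization (all genes -0.12), with every subunit above 0. It was -0.59 with median centring (all genes -0.27). cct-5, the subunit gene with the highest level per length, was at 456.6, 469.3, 498.4 and 474.4 CPM in mutants, against 496.6, 486.6, 523.1 and 509.1 CPM in wild-type animals. These libraries overlapped (limma adjusted p = 0.16). cct-7, which lay lowest, was at 239.1 ± 14.6 CPM in mutants and 350.3 ± 9.67 CPM in wild-type animals, and the ratio of cct-7 to cct-5 reads was 0.504 ± 0.040 in mutants and 0.696 ± 0.038 in wild-type animals (SD, n = 4 each).

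The other subunits, cct-1 (log2 fold change -0.34), cct-2 (-0.34), cct-3 (-0.43), cct-4 (-0.20), cct-6 (-0.28) and cct-8 (-0.28), lay between these 2. Per kb of exon the order of the 8 subunits was the same in both strains except for cct-1 and cct-6. cct-1 was at 163.4 ± 13.59 CPM per kb in mutants and 206.9 ± 6.36 in wild-type animals, and cct-6 at 166.5 ± 6.24 in mutants and 202.3 ± 4.49 in wild-type animals, so these neighbours did not differ beyond their spread in either strain. cct-3 was lowest, at 56.8 ± 2.92 CPM per kb in mutants and 76.7 ± 2.79 in wild-type animals (SD, n = 4 each). The subunits also had small spreads between libraries, with a median SD of 0.080 on the log2 scale in mutants and 0.045 in wild-type animals, while all genes had a median SD of 0.145 in mutants and 0.167 in wild-type animals.

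Of the 6 prefoldin subunit genes, 4 passed as lower on the deposited scale (41.2% of all genes). pfd-1 (log2 fold change -0.03) and pfd-6 (-0.15) did not pass. The median of the 6 was -0.40, and 0.20 with library totals (all genes 0.60). With quantile normalization it was -0.22 (all genes -0.12), and 2 of the 6 passed as lower, beside 6611 of all 14541 genes. pfd-5, the highest prefoldin gene by mean CPM, was at 44.7, 53.1, 68.4 and 61.8 CPM in mutants, against 75.5, 69.4, 75.3 and 83.3 CPM in wild-type animals. The strains were narrowly apart, at 68.4 CPM in mutant replicate 3 and 69.4 CPM in wild-type replicate 2, with a log2 fold change of -0.43 ± 0.12 (limma adjusted p = 0.0085). pfd-2 (-0.53), pfd-3 (-0.41) and pfd-4 (-0.38) had values like that of pfd-5. With library totals all 6 were above 0, and of them pfd-1, pfd-3 and pfd-6 passed, beside 8742 of all 14541 genes that passed as higher.

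The prefoldin genes varied more between mutant libraries than the other families, with a median SD of 0.197 on the log2 scale in mutants and 0.0998 in wild-type animals. Mutant replicate 1 was lowest for 5 of the 6 (33.4% of all genes) and mutant replicate 3 highest for 5 (28.9% of all genes). Wild-type replicate 4 was highest for all 6 (28.7% of all genes). The hsp genes varied the opposite way: mutant replicate 1 was highest for 7 of the 11 (33% of all genes). Wild-type replicate 4 was lowest for 9 of the 11 and for 7 of the 8 cct genes, against 32.9% of all genes. Exon length moved with these deviations. Across 14531 genes, the Spearman correlation between exon length and the deviation of a library from its group mean was 0.528, 0.126, -0.379 and -0.395 for mutant replicates 1 to 4 and 0.189, 0.312, -0.179 and -0.314 for wild-type replicates 1 to 4, a description across genes that share the libraries. Prefoldin genes are short (464 to 898 bp of exon, against a median of 1368 bp), and the 2765 genes of that length had a median log2 fold change of 0.19. The part of exon length in the values of the prefoldin genes was not tested.

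**Figure D5:**
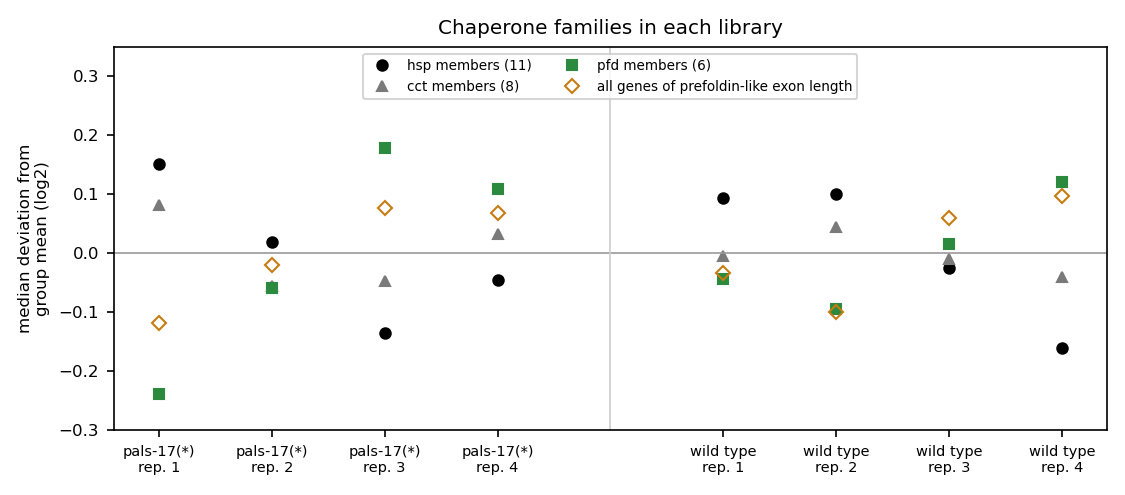
Median deviation from the group mean (log2, y axis) of the hsp, cct and pfd members and of the 2765 genes with a prefoldin-like exon length in each of the 8 libraries (x axis). In mutant replicate 1 the hsp median is at 0.15 and the pfd median at -0.24, and in wild-type replicate 4 they are at -0.16 and 0.12.

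Per kb of exon, hsp-1 was the highest member in both strains, at 1229 ± 115 CPM per kb in mutants and 1537 ± 116 in wild-type animals. In mutants hsp-90 followed at 1095 ± 13.57, a gap to hsp-1 close to the SD of hsp-1, then hsp-6 at 304.0 ± 48.7 and hsp-3 at 285.9 ± 32.1, which did not differ beyond their spread. In wild-type animals hsp-3 was second at 1033 ± 117, ahead of hsp-90 at 852.1 ± 60.2 and hsp-6 at 310.8 ± 45.8 (SD, n = 4 each). hsp-3 thus lay at rank 4 of the 54 members in mutants and rank 2 in wild-type animals. At the other end, hsp-70, dnj-26, dnj-27, dnj-28, dnj-24 and dnj-3 were all at or under 11.4 CPM per kb in mutants.

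Regulators and partners of these chaperones did not share a direction. A list of 4 genes, called HSF-1 regulators below, held hsf-1 itself, the heat shock transcription factor gene, and genes whose products regulate HSF-1. hsf-1 was at 47.8 ± 2.17 CPM in mutants and 28.4 ± 2.60 CPM in wild-type animals (log2 fold change 0.76 ± 0.080, limma adjusted p = 9.2e-06, higher under all 4 scalings). hsb-1, whose product binds HSF-1, did not pass (-0.11, and 0.49 with library totals). On the deposited scale ddl-1 also passed as higher and ddl-2 (-0.51, and 0.09 with library totals) as lower, and the median of the 4 was 0.32. Of 9 HSP90 co-chaperones 3 passed as higher (42.5% of all genes), 4 as lower (41.2% of all genes) and 2 did not pass. The median of the 9 was -0.09, and 0.51 with library totals (all genes 0.60). The 3 higher calls came down to 1 without mutant replicate 1 or 4 or wild-type replicate 1, 3 or 4. Their most abundant genes, daf-41 (p23), at 292.1 ± 37.1 CPM in mutants and 308.7 ± 14.9 CPM in wild-type animals, and sgt-1, at 208.7 ± 21.9 CPM in mutants and 307.0 ± 19.7 CPM in wild-type animals, had log2 fold changes of -0.09 and -0.56, both above 0 with library totals and with quantile normalization.

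Of 10 HSP70 partners and other HSP70 genes, 8 passed as lower (41.2% of all genes) and 1 as higher (42.5% of all genes). With library totals 2 passed as lower and 4 as higher, beside 3390 lower and 8742 higher of all 14541 genes. The median of -0.59 became 0.01 (all genes 0.60). The HSP70-family genes T14G8.3 (log2 fold change -1.60) and F11F1.1 (1.82) were lower and higher under all 4 scalings, and F11F1.1 was at 11.6 ± 0.888 CPM in mutants and 3.28 ± 0.310 CPM in wild-type animals (SD, n = 4 each). By the mean over both strains hip-1 (-0.23) and T24H7.2 (-0.46) had the highest levels of the list, and both were above 0 with library totals and with quantile normalization. F44E5.4 and F44E5.5 in this list are near-identical copies, so the authors' counting may have split reads between them.

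The 6 genes of tubulin folding cofactors and prefoldin-like proteins, which act beside TRiC and prefoldin, all passed as higher (42.5% of all genes). Their median was 0.72, and their values were positive under all 4 scalings. coel-1, which encodes a protein like cofactor E, was at 15.3 ± 1.43 CPM in mutants and 4.77 ± 1.32 CPM in wild-type animals (log2 fold change 1.71 ± 0.19, limma adjusted p = 1.2e-05). tbce-1, the cofactor E gene, had a log2 fold change of 1.12, tbcd-1, the cofactor D gene, of 0.82, and uri-1, a prefoldin-like gene, of 0.61, and these 4 genes passed under all 4 scalings. Germline markers summed to 1808 to 2090 CPM in mutants and 302.4 to 604.3 CPM in wild-type animals, and sperm markers to 646.9 to 747.9 CPM in mutants and 20.2 to 74.9 CPM in wild-type animals. The part of germline, oocyte and sperm RNA in this result was not tested.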

How the data were processed

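Total RNA of whole animals was made into stranded poly(A) libraries. Per the paper's methods and the labels, the authors mapped reads to the WS235 genome with Rsubread, counted them with featureCounts, removed genes with low expression and ran limma-voom. The strand setting, annotation and scaling method are not given in the sources used here. The deposited values are log2 CPM, with 0.5 added to each read count and each library size scaled. Reads were recovered from the steps of these log2 values, and 100% of them came within 0.01 of a whole number. A single read was worth 0.0362 to 0.0446 CPM in mutant and 0.0522 to 0.0681 CPM in wild-type libraries. An entry without a gene name (0.00275 to 0.00568% of reads) was left out.

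Groups came from the sample titles. The deposited log2 values of all 14541 genes were fitted with limma 3.58.1 in R 4.3.3 (intensity trend, 2-sided, Benjamini-Hochberg, no covariate), and the fit was tested on simulated data. Alternatives were voom weights, robust empirical Bayes, a variance without trend, a replicate block, 0.1 or 1 CPM added, a filter of 1 CPM in 4 libraries, 3 other scalings, an adjusted p under 0.01, and each library left out. Exon lengths and positions came from Ensembl release 115 (WBcel235), which matched 14531 (99.9%) of the identifiers. No sequence is shown, as none was read.

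The members, lists and tests were chosen with earlier results of these data known. Genes named are all hsp, cct and pfd members, dnj members beyond an absolute log2 fold change of 1, the 3 dnj members with the highest levels and those that did not pass, and of each list the 2 most abundant genes and those beyond 1. Other genes named were chosen after their values were seen.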

Additional observations from a re-analysis of the deposited data

Results flagged for a closer look

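In each strain the 4 libraries of every member were searched for a library far from the other 3, with its gap to the nearest of the others, as a share of the whole range, above the critical value of Dixon's test. Of 108 such groups of 4 libraries, 3 had one, while chance gives about 1 in 20, or 5.4. dnj-11 was highest in pals-17(*) replicate 3, at 151.2 CPM, against 139.9 to 141.5 CPM in the other mutant libraries. dnj-12 was lowest in wild-type replicate 4, at 253.9 CPM, against 267.8 to 268.7 CPM in the other wild-type libraries. dnj-21 was highest in wild-type replicate 4, at 25.5 CPM, against 17.6 to 18.5 CPM in the other wild-type libraries.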

How the results depend on the processing

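The direction of most members rested on the scaling. Voom weights, no trend, robust empirical Bayes, 0.1 or 1 CPM added and the filter of 1 CPM changed none of the 54 member calls, except that 1 CPM added moved the median of the mitochondrial folding genes to -0.51. An adjusted p under 0.01 left 11 members higher and 29 lower. With library totals, 37 members were higher and 9 lower, 3 of them below -1, the member median was 0.31, the family medians were hsp 0.27, dnj 0.47, cct 0.29 and pfd 0.20, the list medians were HSF-1 regulators 0.92, HSP90 co-chaperones 0.51, HSP70 partners 0.011, ER folding genes -0.16, mitochondrial folding genes 0.016 and tubulin cofactors 1.31, 18 of the 54 list genes turned to the opposite sign, and of the genes named in the text those that turned were cct-1 0.25, cct-2 0.26, cct-3 0.16, cct-4 0.40, cct-5 0.51, cct-6 0.32, cct-7 0.044, cct-8 0.32, dnj-1 0.29, dnj-2 0.11, dnj-10 0.31, dnj-12 0.57, dnj-13 0.35, dnj-14 0.041, dnj-15 0.47, dnj-19 0.27, dnj-25 0.031, dnj-30 0.52, hsp-1 0.27, hsp-6 0.56, hsp-25 0.19, hsp-75 0.15, pfd-1 0.56, pfd-2 0.071, pfd-3 0.18, pfd-4 0.22, pfd-5 0.17, pfd-6 0.45, hsb-1 0.49, daf-41 0.51, ddl-2 0.090, sgt-1 0.036, hip-1 0.36 and T24H7.2 0.14. With median centring, 6 members were higher, the member median was -0.56, the family medians were hsp -0.60, dnj -0.41, cct -0.59 and pfd -0.67, the list medians were HSF-1 regulators 0.047, HSP90 co-chaperones -0.36, HSP70 partners -0.86, ER folding genes -1.03, mitochondrial folding genes -0.86 and tubulin cofactors 0.44, 5 of the list genes turned, and of the named genes dnj-3 -0.18, ire-1 -0.21, dnj-16 -0.13, dnj-17 -0.20 and hsp-110 -0.064 turned. With quantile normalization, 25 members were higher, 8 of them above 1, and 16 lower, 4 of them below -1, the member median was 0.086, the family medians were hsp 0.43, dnj -0.033, cct 0.49 and pfd -0.22, the list medians were HSF-1 regulators 0.0505, HSP90 co-chaperones 0.54, HSP70 partners -0.092, ER folding genes -0.35, mitochondrial folding genes -0.36 and tubulin cofactors 0.85, 10 of the list genes turned, and of the named genes cct-1 0.49, cct-2 0.48, cct-3 0.19, cct-4 0.65, cct-5 0.78, cct-6 0.56, cct-7 0.26, cct-8 0.39, dnj-3 -0.54, dnj-12 0.75, dnj-13 0.39, dnj-19 0.45, hsp-1 0.43, hsp-6 0.86, hsp-25 0.0796, pfd-1 0.14, pfd-6 0.011, daf-41 0.73, sgt-1 0.21, hip-1 0.53 and T24H7.2 0.20 turned. Each scaling alternative changes the library sizes and thus every fold change. Of all 14541 genes, 8742 passed as higher with library totals, 5255 with median centring and 5687 with quantile normalization. Those that passed as lower numbered 3390, 7272 and 6611. Leaving out each library in turn gave 11 to 13 members higher, 31 lower, 5 above 1 and 6 to 7 below -1, as hsp-60 came to -0.9998 without mutant replicate 3, and medians of -0.31 to -0.27 for the members, -0.38 to -0.28 for hsp, -0.20 to -0.059 for dnj, -0.35 to -0.28 for cct, -0.44 to -0.29 for pfd, 0.28 to 0.35 for HSF-1 regulators, -0.16 to -0.015 for HSP90 co-chaperones, -0.65 to -0.54 for HSP70 partners, -0.78 to -0.72 for ER folding genes, -0.61 to -0.55 for mitochondrial folding genes, and 0.67 to 0.74 for tubulin cofactors. The dnj median was nearest to 0 without mutant replicate 1 and farthest without mutant replicate 3, as was that of the HSP90 co-chaperones. dnj-30, which did not pass, ranged from -0.13 to 0.013. hsp-6, which did not pass, ranged from -0.13 to 0.057. pfd-1, which did not pass, ranged from -0.079 to 0.015. dnj-4 lost its call without mutant replicate 3 or 4 or wild-type replicate 1 or 2, dnj-16 passed without mutant replicate 1 (0.19) or wild-type replicate 4 (0.18), and hsp-110 passed without wild-type replicate 1 (0.27). Of the HSP90 co-chaperones, 3 of which passed as higher, 1 did so with no trend and without mutant replicate 1 or 4 or wild-type replicate 1, 3 or 4, and 2 did so with voom weights, robust empirical Bayes, the replicate block, 1 CPM added and without mutant replicate 2 or 3. The HSP70 partners higher were 2 instead of 1 without mutant replicate 1, and the mitochondrial folding genes lower were 7 instead of 8 with no trend and without mutant replicate 1, 3 or 4 or wild-type replicate 1 or 2. Across all genes the correlations of same-numbered deviations were 0.0731, 0.0621, 0.0076 and -0.0167, and 1 of 4 mutant replicates correlated best with its own number. The median deviations of the hsp and pfd genes and the exon-length correlations had the same sign in same-numbered libraries of both strains. Those of the dnj and cct genes did not in every pair, so whether the numbers pair the libraries was not settled. With the replicate block 14 members were higher and 31 lower, dnj-16 (limma adjusted p = 0.0391) and hsp-110 (limma adjusted p = 0.0156) passing as well, and no other member call changed. Depth was low for hsp-70, dnj-28 and dnj-26, with 295, 254 and 71 reads over the wild-type libraries.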
